A study of Mus musculus with 8 samples.

Results

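The genes described here are 7 markers of bile duct epithelium and of liver progenitor-like cells, Sox9, Sox4, Spp1, Epcam, Cd24a, Prom1 and Clu, taken by gene symbol from the 56748 genes of the deposited count table. They were followed in mouse primary hepatocytes, the parenchymal cells of the liver, cultured for 24 h on a soft (1 kPa) or a stiff (20 kPa) collagen-coated hydrogel. All mice carried floxed Yap and Taz alleles (Yap fl/fl; Taz fl/fl), and at 7 to 8 weeks of age they received AAV8-TBG-Cre, which gave the Yap/Taz knockout (KO), or AAV8-TBG-Null, which gave the wild-type (WT) control. Hepatocytes were isolated 10 days later. The 4 groups (WT soft, WT stiff, KO soft and KO stiff) held 2 libraries each, and no source says whether the libraries of a group came from different mice, so p-values measure the spread between these libraries, which may be technical. The TBG promoter, from the gene of thyroxine-binding globulin, drives Cre in hepatocytes, so other liver cells keep both genes. The methods also name a ROSA26-LSL-tdTomato reporter in the floxed line. The series text gives female mice and the protocols give male mice.

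Hepatocytes and cholangiocytes, the cells that line bile ducts, arise from a common hepatoblast. In injured liver, hepatocytes can take on biliary features, a change in which the transcriptional coactivators YAP and TAZ, the Notch pathway and SOX transcription factors are known to take part. YAP and TAZ carry no DNA-binding domain and act on genes mainly through TEAD factors. In adult liver Sox9 marks the ducts and some periportal hepatocytes, Epcam, Cd24a and Prom1 encode surface proteins of biliary and progenitor cells, Spp1 encodes the secreted matrix protein osteopontin, and Clu encodes the secreted chaperone clusterin, which hepatocytes also make. The comparisons ask whether this group of genes moves with stiffness and with the loss of Yap/Taz.

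Promoter sequence was looked at because several of these genes differed between genotypes. RefSeq promoters of build GRCm38.p6 were matched for 4 of the 7 genes (Sox4, Spp1, Epcam and Prom1), and 3 short motifs were searched on both strands in the 250 bases before each start: GGAATG for TEAD, TGGGAA for RBPJ, the DNA-binding partner of Notch, and TGANTCA for AP-1. The Sox4 promoter (minus strand, chr13:28953700-28953949) is shown because it held a match to the TEAD letters, and the first Spp1 promoter (plus strand, chr5:104434861-104435110) because it held none of the 3 motifs. Both run from 5′ to 3′ towards the start, and capitals mark motif matches.
Sox4: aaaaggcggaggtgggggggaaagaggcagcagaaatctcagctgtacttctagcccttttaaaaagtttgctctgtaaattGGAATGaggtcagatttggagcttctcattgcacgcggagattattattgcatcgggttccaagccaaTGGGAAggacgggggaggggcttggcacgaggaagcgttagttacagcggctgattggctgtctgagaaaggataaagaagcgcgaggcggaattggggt
Spp1: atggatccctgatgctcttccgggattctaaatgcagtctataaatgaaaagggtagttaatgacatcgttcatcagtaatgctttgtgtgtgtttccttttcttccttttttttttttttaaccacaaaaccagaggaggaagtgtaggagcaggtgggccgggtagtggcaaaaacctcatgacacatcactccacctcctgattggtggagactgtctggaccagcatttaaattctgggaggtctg

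In Sox4 the TEAD match began 168 bases and the RBPJ match 100 bases before the start. The first of 2 listed Prom1 promoters held an RBPJ match beginning 116 bases and an AP-1 match 88 bases before the start, and the second held an AP-1 match at 189 bases. No match overlapped another. Epcam and the second Spp1 promoter held none of the 3 motifs. Of 32851 RefSeq promoters of the same 250 bases, 12.6% held the TEAD letters, 21.6% the RBPJ letters and 6.75% the AP-1 letters. A match describes the letters and is not a measured binding site.

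The libraries held between 18324083 and 26442310 counts. A normalized CPM is a gene's share of its library after TMM scaling, in the usual CPM unit, and a normalized FPKM is that value per kilobase of the gene length in the table. edgeR's filter on low counts kept 14279 genes, among them 6 of the 7 described here (Cd24a did not pass). A gene was called when its edgeR p, adjusted by Benjamini-Hochberg over all tested genes, was under 0.05 and its log2 fold change was beyond 0.5 in either direction. Yap1 lay between 95.5 and 140 normalized CPM in the WT libraries and between 28.4 and 31.8 in the KO libraries. Wwtr1, which encodes TAZ, lay between 41.5 and 65.2 in WT against 13.7 and 16.6 in KO. RNA of both thus remained detectable in the KO, which is not a measure of the proteins. The study reported their deletion in hepatocytes by immunoblot. In WT cells the log2 fold change from soft to stiff was 0.49 for Yap1, just under the fold threshold, and 0.62 for Wwtr1 (adjusted p = 1.69e-06 and 1.06e-06, edgeR).

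Per length, Clu and Spp1 were far above the others in every group. In WT soft cells the mean normalized FPKM was 1696 for Clu, 318 for Spp1, 9.31 for Sox9, 6.06 for Sox4, 0.389 for Prom1, 0.320 for Epcam and 0.0977 for Cd24a (n = 2). The Prom1 and Epcam libraries of this group overlapped. In WT stiff cells Sox9 (9.69 ± 0.697) and Sox4 (9.08 ± 0.351) also overlapped, whereas Sox9 lay above Sox4 in both libraries of each other group. In the KO the order of Prom1 and Epcam was turned, with mean FPKM of 0.180 and 0.277 on soft and 0.162 and 0.425 on stiff. The surface marker genes Prom1, Epcam and Cd24a were the lowest 3 in each group.

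**Figure D1:**
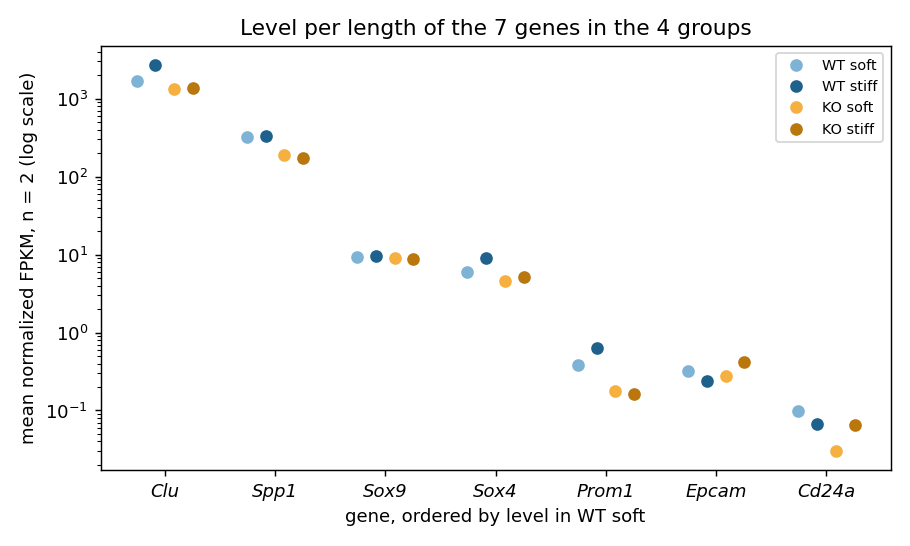
Mean normalized FPKM (n = 2, log scale) of the 7 genes in the 4 groups, with genes ordered by their level in WT soft cells and colours for the groups. Clu and Spp1 lie more than an order of magnitude above Sox9 and Sox4, which lie above Prom1, Epcam and Cd24a.

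When WT cells on stiff were set against WT cells on soft, 3 of the 6 tested genes, Clu, Sox4 and Prom1, were called higher and 0 were called lower, where 10.0% of all tested genes were called higher and 9.26% lower (edgeR's quasi-likelihood test). Sox9, Spp1 and Epcam were not called, and 3 of the 6 had an unadjusted p under 0.05. DESeq2 called 2, Clu and Sox4. In bulk RNA, fewer cells of a type and less RNA per cell cannot be told apart. The median log2 fold change of the 6 was 0.32, beside -0.0087 over all tested genes. In the KO, 0 of the 6 were called on stiff against soft, where 0.0210% of all genes were called in either direction. There, Spp1 and Clu had an unadjusted p under 0.05, DESeq2 likewise called 0, and the median of the 6 was 0.031 beside 0.0076 over all genes.

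Knockout against wild type was called lower for 2 of the 6 genes on the soft hydrogel, Spp1 and Prom1, where 4.65% of all tested genes were called lower and 2.02% higher. On the stiff hydrogel it was called lower for 4 of the 6, Spp1, Prom1, Sox4 and Clu, where 15.0% of all tested genes were called lower and 13.7% higher. None of the 6 was called higher in the KO on either hydrogel by edgeR or DESeq2, and none of the rises had an unadjusted p under 0.05. The median log2 fold change of the 6 was -0.39 on soft and -0.86 on stiff, beside -0.00031 and 0.011 over all genes. These comparisons share libraries with the stiffness comparisons and are not independent of them.

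Counts under looser criteria are given beside their shares over all tested genes. At an unadjusted p under 0.05, 3 of the 6 genes passed in WT stiff against soft (48.0% of all tested genes), 2 in KO stiff against soft (7.54%), 4 in the test of whether the stiffness effect differed between genotypes (39.0%), 4 in KO against WT on soft (29.6%) and 4 on stiff (56.1%). At an adjusted p under 0.05 and any fold (edgeR), the counts were 3 (41.0%), 0 (0.0210%), 2 (29.4%), 4 (18.4%) and 4 (51.1%) in the same order. Libraries of the compared groups did not overlap for 3 genes higher and 0 lower on stiff in WT (34.0% and 34.8% of all genes), and for 2 higher and 1 lower on stiff in KO (20.9% and 17.2%). On soft, 5 of the 6 genes were lower in KO without overlap and 0 higher (28.6% and 27.6%), and on stiff 4 were lower and 0 higher (36.8% and 37.7%). Calls in either direction covered 19.3% of all genes in WT stiff against soft, 6.67% in KO against WT on soft and 28.7% on stiff. In KO stiff against soft, 0.0140% of all genes were called higher and 0.00700% lower.

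**Figure D2:**
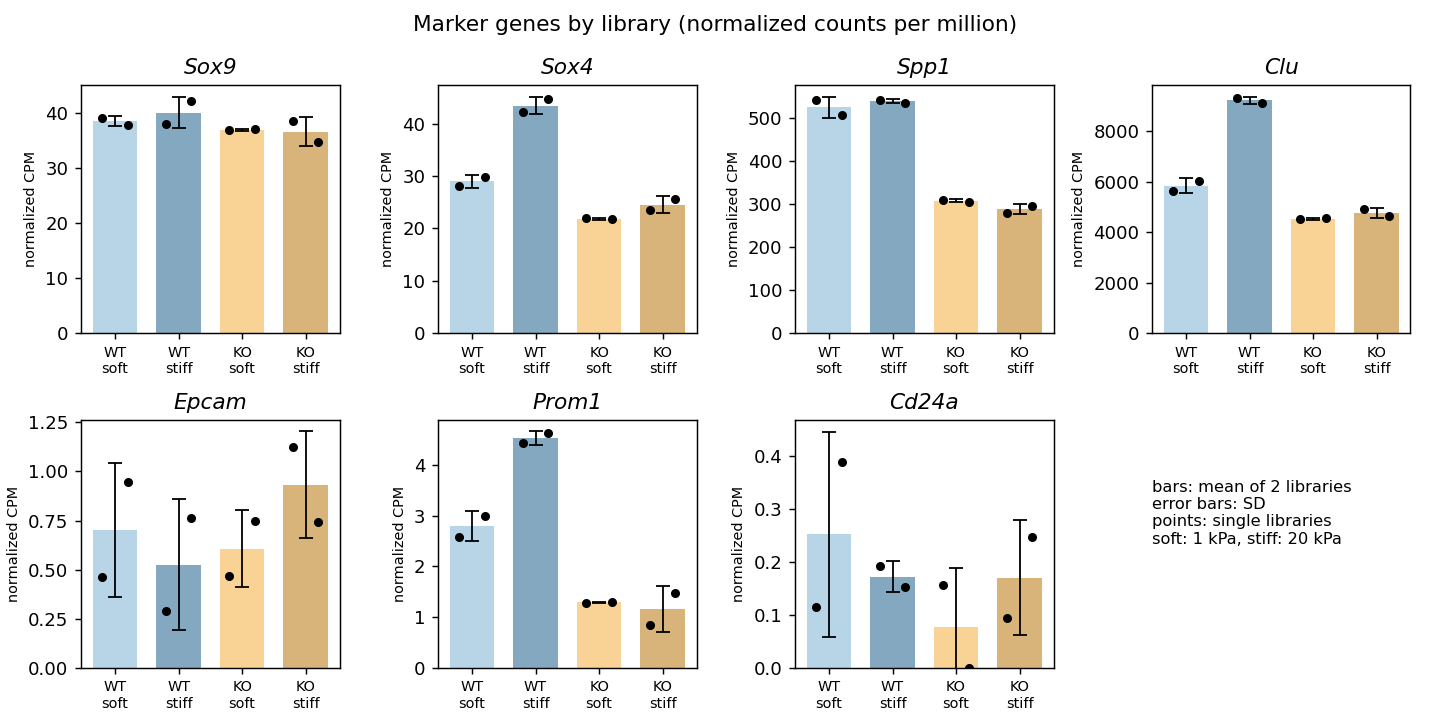
Normalized CPM (vertical axes from 0, one panel per gene) in the 4 groups, with single libraries as points, means of 2 libraries as bars and SD as error bars. Sox4, Clu and Prom1 are highest in WT stiff cells, and Sox9 is at a similar height in the 4 groups. For Sox4, Clu, Prom1 and Spp1 each KO library is below each WT library, and for Spp1 the WT soft and stiff libraries overlap.

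Sox9 (ENSMUSG00000000567, chromosome 11 from 112673050 to 112678586 in the deposited table, length 4135 bases) encodes an HMG-box transcription factor of duct cells and hepatocytes with biliary features. It had 39.1 and 37.9 CPM in WT soft, 38.0 and 42.1 in WT stiff, 36.8 and 37.1 in KO soft and 38.5 and 34.8 in KO stiff libraries. All 8 libraries lay in this narrow span, stiff and soft overlapped in both genotypes, and on soft both KO libraries were below both WT libraries. The log2 fold change from soft to stiff was 0.056 in WT (95% interval -0.099 to 0.211, adjusted p = 0.588, edgeR) and -0.012 in KO (-0.168 to 0.143, adjusted p = 0.982, edgeR). Between genotypes it was -0.060 on soft (-0.215 to 0.0941) and -0.13 on stiff (-0.284 to 0.0279), with adjusted p = 0.642 and 0.161 (edgeR). Each of these 4 intervals lay inside the fold threshold of 0.5, at 682 to 1016 counts per library.

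Sox4 (ENSMUSG00000076431, chromosome 13 from 29132902 to 29137696, length 4795 bases) encodes a related HMG-box factor that acts with Sox9 in bile duct development. It had 28.2 and 29.9 CPM in WT soft, 42.3 and 44.7 in WT stiff, 21.9 and 21.7 in KO soft and 23.5 and 25.7 in KO stiff libraries. The WT stiff libraries were above all others, and each KO library was below each WT library. In WT cells Sox4 rose 1.5-fold on stiff, or by 0.59 on the log2 scale (standard error, SE, 0.0774, adjusted p = 6.89e-06, edgeR), which lay close to the fold threshold. In KO cells the log2 fold change was 0.17 (95% interval -0.00406 to 0.344, adjusted p = 0.658, edgeR). The difference between these stiffness effects was -0.42 (SE 0.113, adjusted p = 0.00957, edgeR), past the p threshold but under the fold threshold. KO against WT was -0.41 on soft (adjusted p = 0.0013, edgeR), again under the fold threshold, and -0.82 on stiff (adjusted p = 7.04e-08, edgeR). In the reference annotation GENCODE M21, the long non-coding RNA gene Gm26735 (plus strand) overlaps Sox4 (minus strand) over 2753 bases. It contains 54.0% of the 64-base windows of the longest Sox4 transcript. Gm26735 is absent from the deposited gene list, so it has no counts of its own here. The study's methods name dUTP, which marks strand, and the labels leave directional and non-directional libraries open. Whether counting used strand is not given in the sources used here, and the Sox4 counts are uncertain to that extent.

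Spp1 (ENSMUSG00000029304, chromosome 5 from 104582984 to 104588916, length 1648 bases) encodes osteopontin, a ligand of integrins and CD44. It had 542 and 507 CPM in WT soft, 543 and 536 in WT stiff, 310 and 306 in KO soft and 279.99 and 296 in KO stiff libraries. The 4 WT libraries were all above the 4 KO libraries, and the WT soft and stiff libraries overlapped. KO was 0.587 times WT on soft, or -0.77 on the log2 scale (SE 0.0426, adjusted p = 2.87e-10, edgeR), and 0.534 times WT on stiff, or -0.90 on the log2 scale (SE 0.0428, adjusted p = 3.28e-12, edgeR). From soft to stiff the log2 fold change was 0.039 in WT (95% interval -0.0492 to 0.128, adjusted p = 0.493) and -0.097 in KO (-0.187 to -0.00636, adjusted p = 0.639, edgeR). The difference between these stiffness effects was -0.14 (-0.263 to -0.00955, adjusted p = 0.101, edgeR). Both stiffness intervals lay inside the fold threshold. Gm42793, which overlaps Spp1 on the same strand, averaged 7.63 counts over the libraries.

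Clu (ENSMUSG00000022037, chromosome 14 from 66205932 to 66218996, length 3437 bases) was the most abundant of the 7 genes and took between 0.458% and 0.911% of all counts of a library. It had 5622 and 6038 CPM in WT soft, 9324 and 9133 in WT stiff, 4503 and 4539.9 in KO soft and 4897 and 4627 in KO stiff libraries. As for Sox4, the WT stiff libraries were highest and every KO library was below every WT library. In WT cells Clu rose 1.58-fold on stiff, or by 0.66 on the log2 scale (SE 0.0319, adjusted p = 8.86e-12, edgeR). In KO cells the log2 fold change was 0.075 (95% interval 0.00799 to 0.142, adjusted p = 0.633, edgeR). The difference between these stiffness effects was -0.59 (SE 0.0449, adjusted p = 1.28e-08, edgeR), and Clu was the single gene of the 6 called for it, where 16.8% of all tested genes were called, 8.64% higher and 8.21% lower. KO against WT was -0.37 on soft (adjusted p = 1.04e-07, edgeR), under the fold threshold, and -0.95 on stiff (adjusted p = 2.38e-14, edgeR).

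**Figure D3:**
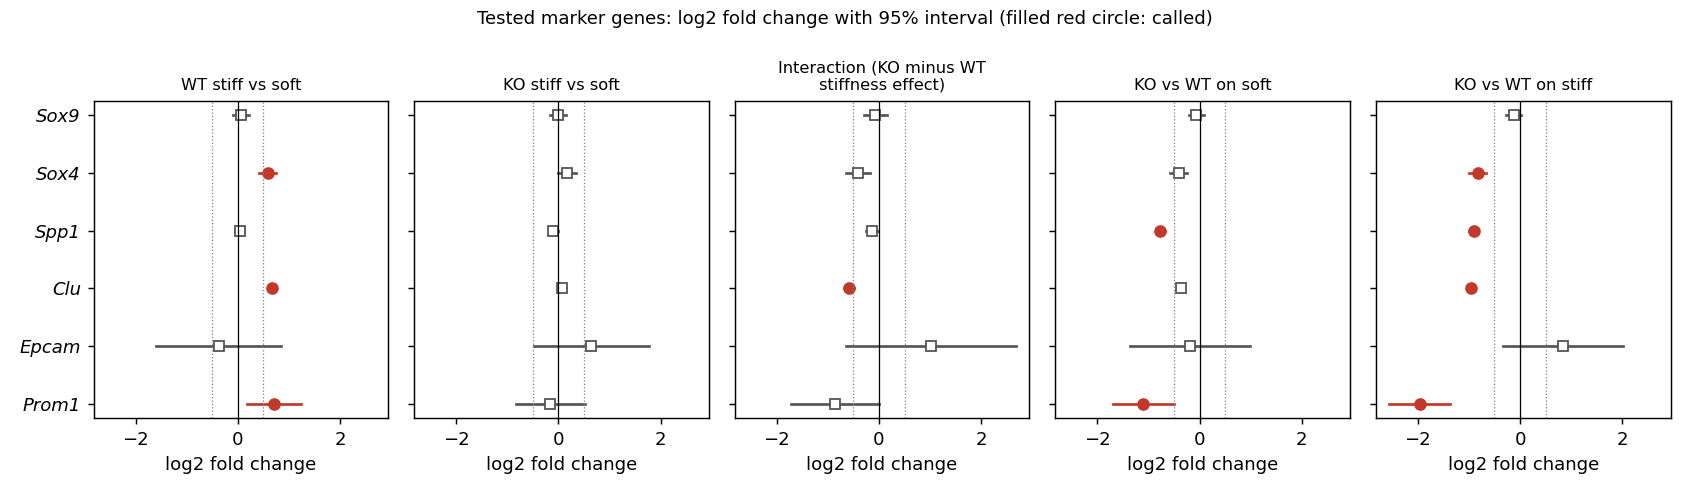
Log2 fold change (horizontal axis) with its 95% interval for the 6 tested genes in the 5 comparisons, with filled red circles for called genes, open squares for genes not called and dotted lines at the fold threshold of 0.5. Sox9 lies near 0 in each panel, and the Epcam intervals are the widest. Between genotypes the intervals of Spp1, Prom1, Clu and Sox4 lie below 0 on both hydrogels.

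Prom1 (ENSMUSG00000029086, chromosome 5 from 44150962 to 44259374, length 7175 bases) encodes prominin 1 (CD133), a membrane protein of progenitor and duct cells. Its counts were 67 and 54 in WT soft, 92 and 91 in WT stiff, 33 and 26 in KO soft and 18 and 30 in KO stiff libraries, which came to 2.58 and 2.9992, 4.44 and 4.62, 1.29 and 1.29, and 0.843 and 1.48 CPM. The WT stiff libraries were again highest, and all KO libraries were below all WT libraries. In WT cells Prom1 was called higher on stiff by 0.71 on the log2 scale (SE 0.249, adjusted p = 0.0301, edgeR), but the call rested on small counts. It was lost with DESeq2 (adjusted p = 0.139) and when the first WT soft library (adjusted p = 0.164, edgeR), the first WT stiff library (0.0933) or the second WT stiff library (0.130) was left out. In KO cells the log2 fold change was -0.16 (95% interval -0.838 to 0.524, adjusted p = 0.936, edgeR), and the difference between the stiffness effects was -0.86 (-1.72 to -0.00352, adjusted p = 0.127, edgeR). Without the second KO stiff library this difference was called, at -1.33 (adjusted p = 0.0364, edgeR). KO against WT was -1.10 on soft (SE 0.285, adjusted p = 0.0103, edgeR) and -1.96 on stiff (SE 0.281, adjusted p = 1.2e-05, edgeR). The call on soft was lost without the first KO soft library (adjusted p = 0.0658, edgeR) or without the second WT soft library (0.057).

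Epcam (ENSMUSG00000045394, chromosome 17 from 87943407 to 87958557, length 2195 bases), the epithelial cell adhesion molecule of duct cells, had 12 and 17 counts in WT soft, 6 and 15 in WT stiff, 12 and 15 in KO soft and 24 and 15 in KO stiff libraries. Stiff and soft overlapped in both genotypes, as did WT and KO on both hydrogels. The log2 fold change from soft to stiff was -0.37 in WT (95% interval -1.60 to 0.852, adjusted p = 0.653) and 0.64 in KO (-0.482 to 1.77, adjusted p = 0.798, edgeR). KO against WT was -0.18 on soft (-1.36 to 0.997, adjusted p = 0.878) and 0.84 on stiff (-0.335 to 2.01, adjusted p = 0.225, edgeR). The difference between the stiffness effects was 1.015 (-0.647 to 2.68, adjusted p = 0.372, edgeR). A change of Epcam within these wide intervals was not detectable at this depth.

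Cd24a (ENSMUSG00000047139, chromosome 10 from 43454280 to 43460261, length 2580 bases), which encodes the surface glycoprotein CD24, had 3 and 7 counts in WT soft, 4 and 3 in WT stiff, 4 and 0 in KO soft and 2 and 5 in KO stiff libraries. The single 0 leaves room for as many as 3 counts (counting error only), and 3 counts were worth between 0.116 and 0.167 CPM across the libraries. Cd24a did not pass the filter on low counts. With no filter, its log2 fold changes in the 5 comparisons ran from -1.44 (KO against WT on soft) to 1.40 (the difference between stiffness effects), with adjusted p from 0.713 to 1 (edgeR), and at these counts a change was not detectable.

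By Pearson correlation of log2 CPM over the 8 libraries, the tested genes with a mean of at least 100 counts most like Sox4 were Gsdmd (0.999), Aida (0.998) and Pard6b (0.997). Those most like Clu were Lasp1, Myh9 and Tnfaip2 (each 0.999), those most like Spp1 were Hrg, Cyp2a12 and Chrna4 (each 0.997), and those most like Prom1 were Plaat3 (0.996), Irgq (0.994) and Rsad2 (0.992). For Sox9 the highest values were lower, with Nek9 (0.933), Faf2 (0.928) and Dph1 (0.927), and for Epcam they were Armc5 (0.943), Klhl42 (0.935) and Ehmt1 (0.928). These values describe patterns over 4 groups of 2 libraries, each taken as the highest of 10036 or 10037 genes.

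Other biliary genes split in both directions. Of 23 such genes 16 were tested, and in WT cells on stiff 4 were called higher and 5 lower (median log2 fold change 0.093), where 10.0% of all tested genes were called higher and 9.26% lower. The genes called higher were Krt19, a duct keratin (2.13 ± 0.448 to 20.6 ± 0.638 CPM, SD, n = 2, log2 fold change 3.30), Bicc1, an RNA-binding protein gene (4.72 ± 0.465 to 27.9 ± 1.98, 2.55), Pkhd1, the gene of fibrocystin in cilia of duct cells (6.84 ± 0.244 to 16.6 ± 0.820, 1.28), and Cldn4, a tight junction claudin (145 ± 2.17 to 291 ± 2.54, 1.00). Among those called lower were Slc10a2, the apical bile acid transporter (13.2 ± 2.14 to 3.68 ± 0.319 CPM, -1.85), Elf3, an epithelial transcription factor (21.5 ± 0.573 to 8.70 ± 0.378, -1.31), Aqp1, a water channel (23.9 ± 0.0959 to 13.5 ± 1.13, -0.83), and the mucin gene Muc1, with 13 counts in each WT soft and 2 in each WT stiff library. In the KO, 0 of the 16 were called between stiff and soft, where 0.0210% of all genes were called, so a count of 0 is no result about these genes or the lists below. The difference between stiffness effects was called for 8 of the 16, where 16.8% of all genes were called, with Krt19, Bicc1, Pkhd1 and Cldn4 lower in the KO and Slc10a2, Elf3, Aqp1 and Onecut2, a transcription factor gene of biliary development, higher.

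Of 20 genes of progenitor and fetal liver cells 11 were tested, and in WT cells on stiff 4 were called higher and 1 lower (median log2 fold change 0.44), beside 10.0% and 9.26% of all genes. Those called higher were Nes, the gene of the intermediate filament nestin (2.66), Anxa3 (2.37), Vim, the gene of vimentin (1.01), and Icam1 (0.91), and Itga6, an integrin subunit gene, was called lower (-0.58). Afp, the fetal serum protein gene, had a log2 fold change of 0.44 (adjusted p = 0.00149, edgeR), under the fold threshold. In the KO 0 of the 11 were called between stiff and soft. For Nes, Anxa3, Vim and Icam1 the stiffness effect was lower in the KO (-2.88, -2.48, -0.97 and -0.90 on the log2 scale), all called (edgeR), and for Itga6 it was called higher (0.56, adjusted p = 5.44e-06, edgeR). Of all genes 8.21% were called lower and 8.64% higher for this difference.

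Of 25 genes of the Notch pathway 18 were tested, and in WT cells on stiff 0 were called higher and 1 lower, Maml3, a coactivator gene (5.55 ± 0.326 to 2.76 ± 0.387 CPM, SD, n = 2, log2 fold change -0.997). Of all genes 10.0% were called higher and 9.26% lower. The median log2 fold change of the 18 was -0.066. The receptor gene Notch2 had 74.1 ± 2.02 CPM on soft and 75.9 ± 2.32 on stiff, the target gene Hes1 11.2 ± 1.29 and 10.8 ± 1.41, and neither was called. The ligand gene Jag1, named after its values were seen, had 7.39 ± 0.940 and 10.1 ± 0.0103 CPM, a log2 fold change of 0.44 (adjusted p = 0.0195, edgeR), under the fold threshold. In the KO 0 of the 18 were called between stiff and soft. The difference between stiffness effects was called for 3 of the 18, where 16.8% of all genes were called. It was higher in the KO for Maml3 (1.17, adjusted p = 0.00172) and the receptor gene Notch1 (0.61, adjusted p = 0.00299) and lower for Jag1 (-0.70, adjusted p = 0.0163, edgeR).

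A list of 24 genes held receptors, proteases and other partners of osteopontin, clusterin, CD24 and EpCAM, and the ligand genes Thbs1 and Tgfb2. Of these, 19 were tested. In WT cells on stiff 6 were called higher and 3 lower (median log2 fold change 0.20), beside 10.0% and 9.26% of all genes. In the KO 0 of the 19 were called, and the difference between stiffness effects was called lower for 5 and higher for 1, beside 8.21% and 8.64% of all genes. The osteopontin receptor subunits Itgav and Itgb1 rose from 134.5 ± 5.92 to 223 ± 3.95 and from 465 ± 9.54 to 745 ± 8.75 CPM (log2 fold changes 0.73 and 0.68), while Spp1 itself was not called. Cd44 had 83.7 ± 2.53 and 96.3 ± 3.89 CPM (log2 fold change 0.20) and was not called. Lrp8, a receptor gene for clusterin, rose from 9.96 ± 0.363 to 18.0 ± 0.385 CPM (0.85) and Vldlr, a related receptor gene, fell from 8.67 ± 0.386 to 5.62 ± 0.103 (-0.62). The integrin ligand gene Thbs1 (2.19) and Tgfb2 (2.05), a TGF-beta ligand gene, also rose, and Selp (-0.85) and Itga9 (-0.66) were called lower. Siglecg, a gene of a CD24-binding lectin, had 0 and 2 counts on soft and 17 and 10 on stiff.

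All 20 genes of a hepatocyte identity list were tested, and in WT cells on stiff 0 were called higher and 8 lower (median log2 fold change -0.34), beside 10.0% and 9.26% of all genes. The largest falls were Cyp2e1 (-1.75), a cytochrome P450 gene, G6pc (-1.73), the glucose-6-phosphatase gene, and the transcription factor genes Prox1 (-1.02) and Cebpa (-0.99). The master regulator gene Hnf4a fell from 372 ± 9.46 to 189 ± 4.66 CPM (SD, n = 2, log2 fold change -0.98), whereas Alb, the albumin gene, was not called (0.080). In the KO 0 of the 20 were called between stiff and soft, and for 8 the stiffness effect was called higher than in WT, beside 0.0210% and 8.64% of all genes. On stiff, KO against WT was called higher for 8 and lower for 2 of the 20, beside 13.7% and 15.0% of all genes.

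**Figure D4:**
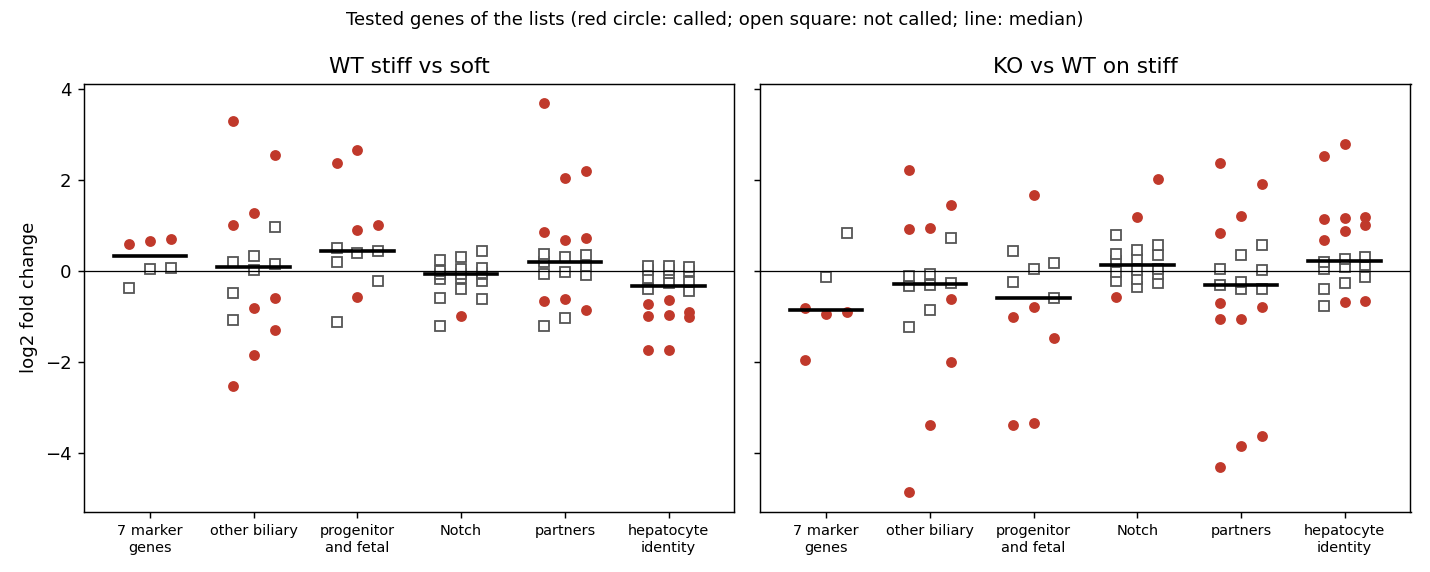
Log2 fold change (vertical axis) of each tested gene of the 6 lists in WT stiff against WT soft (left) and in KO against WT on stiff (right), with red circles for called genes, open squares for the others and black lines at the list medians. The biliary and partner lists hold called genes on both sides of 0, the Notch list has 1 called gene at left, and the 8 called hepatocyte genes at left are all below 0.

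Markers of other liver cells moved with the groups. Of 12 cholangiocyte markers 6 passed the filter, and their summed level over the 12 was 47.9 to 48.5 CPM in WT soft, 89.5 to 95.5 in WT stiff, 43.6 to 47.8 in KO soft and 44.8 to 45.1 in KO stiff libraries. Krt19, Pkhd1 and Bicc1, the 3 called higher on stiff in WT, summed to 13.5 to 13.9 CPM in WT soft, 62.6 to 67.5 in WT stiff, 6.13 to 7.11 in KO soft and 7.26 to 7.81 in KO stiff libraries. The other 9 summed to 34.1 to 34.99, 26.9 to 28.1, 37.5 to 40.7 and 37.3 to 37.5 in the same order, and 2 of them, Muc1 and Slc10a2, were called lower on stiff in WT. The 12 markers were split by their calls in these same libraries. The rise of the 3 in WT stiff and the lack of one in the other 9 are therefore no separate result. Among those 9, Cftr was at 0 counts in all 8 libraries, Sctr had 3 counts in 1 KO stiff library and 0 elsewhere, and Krt7 had between 0 and 3 counts. All 12 macrophage markers were tested, and their summed level was 102 to 106 CPM in WT soft, 70.5 to 77.3 in WT stiff, 149 to 151 in KO soft and 152 to 154 in KO stiff libraries. The 12 endothelial markers gave 131 to 132, 81.7 to 89.6, 170 to 173 and 176 to 190.4 CPM in the same order, and the 12 stellate cell markers, 10 of them tested, gave 38.8 to 39.3, 26.6 to 27.7, 55.3 to 56.4 and 56.2 to 59.3. These 3 sums were lowest in WT stiff and higher in KO, whereas the cholangiocyte sum was highest in WT stiff. In WT stiff against soft, 7 of 12 macrophage, 7 of 12 endothelial and 4 of 10 stellate markers were called lower, beside 9.26% of all genes. In the stellate list 1 was called higher, and Col1a1 rose from 3.95 to 6.76 CPM. On stiff, KO against WT was called higher for 11, 11 and 7 of these markers and lower for 0, 0 and 1, beside 13.7% and 15.0% of all genes. Sox4, Clu and Prom1 were highest in WT stiff, and Spp1, which macrophages can also make, was lower in KO. Of 12 lymphocyte and neutrophil markers 1 passed the filter, and their sum was between 0.965 and 3.28 CPM. The summed hepatocyte list was 90730 to 91220 CPM in WT soft and 92700 to 94280 in WT stiff, against 63660 to 64410 in the KO libraries, and most of that sum was Alb. Without Alb, the other 19 genes summed to 8991 to 9112 CPM in WT soft, 6875 to 6914 in WT stiff, 8951 to 9284 in KO soft and 8860 to 9162 in KO stiff libraries, so they were lowest in WT stiff. The part of these differences in the results was not tested.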

How the data were processed

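Poly-A RNA of the 8 cultures was sequenced as paired 150-base reads. Reads were aligned by the authors with HISAT2 (2.0.5) and summed per gene with featureCounts. The deposited values are raw counts without normalization, beside a gene length in bases. The submitters' processing notes list mm9. The starts of all 7 genes differ from GENCODE M21 (GRCm38), with equal spans, so gene positions are those of the deposited table and its build was not settled. Promoter positions are on GRCm38.p6, so distances between them and the gene positions cannot be read off. The methods name dUTP in cDNA synthesis, which marks strand, whereas the strand setting of the counting is not given in the sources used here.

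Tests on the counts used edgeR 4.0.16 under R 4.3.3 (filterByExpr by group, TMM, glmQLFit on all 8 libraries with 4 residual degrees of freedom, glmQLFTest). Intervals and standard errors come from the quasi-likelihood F. The intervals use edgeR's total degrees of freedom, which add a prior part estimated over all genes to the residual part. DESeq2 1.42.0 was an alternative. Figures used matplotlib 3.10.9. The fit was tested on simulated data. With 200 of 14279 genes changed by 1 on the log2 scale between the WT groups, 79.0% were recovered with 2 others called.

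The 7 genes and the lists were chosen with earlier results of these data known. Beside the 7 genes, the text names Yap1, Wwtr1, up to 4 genes called each way per list, partners of the 7 genes, and the 3 genes most like each. It also names list genes outside that rule, among them Hnf4a, Onecut2, Notch1, Notch2, Hes1, Jag1, Afp, Alb, Cftr, Sctr and Krt7, called or not. Replicates differed by more than sampling noise (chi-square per degree of freedom 2.62 to 5.45). With 2 libraries a group an exact permutation test cannot go below p = 0.333.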

Additional observations from a re-analysis of the deposited data

Results flagged for a closer look

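The interaction term of the edgeR fit had an adjusted p under 0.05 at any fold for 2 of the 6 tested genes, Clu and Sox4. Of all tested genes 29.4% passed this criterion. Only Clu was called, where 16.8% of all tested genes were called. For Clu the KO effect minus the WT effect was -0.59 on the log2 scale (adjusted p = 1.28e-08, edgeR). Both WT stiff libraries were above both WT soft libraries, and the KO means were 4521 CPM on soft and 4762 on stiff. For Sox4 it was -0.42 (adjusted p = 0.00957, edgeR), under the fold threshold of 0.5, with KO means of 21.8 and 24.6 CPM. Over the alternatives the adjusted p of this Sox4 difference ran from 0.00535 to 0.0474, and its size from -0.49 to -0.35.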

How the results depend on the processing

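At an absolute log2 fold change over 1, the genes called in all and among the 7 were 1244 and 0 (WT stiff against soft), 1 and 0 (KO stiff against soft), 1040 and 0 (interaction), 353 and 1 (KO against WT on soft) and 2097 and 1 (on stiff). Between the KO groups, 50 genes were called with no filter on low counts and 9 when those 4 libraries were fitted alone, beside 3, and 1 to 8 with each library left out. With each library left out, 1 to 2 of the 7 were called for the interaction and 1 to 2 for KO against WT on soft, and the changes were in Prom1. Directions turned for genes that were not called, with ranges over the omitted libraries of -0.017 to 0.13 (Sox9), -0.0040 to 0.096 (Spp1) and -1.21 to 0.18 (Epcam) for WT stiff against soft, -0.091 to 0.051 (Sox9) and -0.62 to 0.20 (Prom1) for KO stiff against soft, and -0.65 to 0.37 (Epcam) for KO against WT on soft. Epcam turned under 2 omissions in each of its comparisons, at 0.18 (second WT soft library) and 0.17 (first WT stiff library) in the former and at 0.37 (second WT soft library) and 0.13 (first KO soft library) in the latter. The Clu, Sox4 and Spp1 calls held under every alternative at the fold threshold of 0.5. The replicate numbers are shared between groups but no source says that they pair the samples, and the correlation of same-numbered deviations was between -0.101 and 0.0424. With the replicate number as a block, 3, 0, 1, 2 and 4 of the 7 were called in the 5 comparisons, as without it, and 2705, 3, 2330, 895 and 4071 of all genes. Upper-quartile and DESeq2 size factors turned no list median and moved the median of all genes by at most 0.0175. Cause was not tested for any of these shifts. Epcam, Cd24a and Prom1 are limited by depth.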
